A study of Mus musculus with 7 samples.

Results

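Complex I, NADH:ubiquinone oxidoreductase, is the first enzyme of the mitochondrial respiratory chain. It takes electrons from NADH in its matrix arm, passes them over a flavin and a chain of iron-sulfur clusters to ubiquinone, and pumps protons through its membrane arm. Most of its subunits are encoded in the nucleus and 7 in mitochondrial DNA, and a further set of proteins, the assembly factors, build the complex without staying in it. In fat, brown and beige adipocytes hold many more mitochondria than white adipocytes. The genes described here are the protein-coding nuclear genes of the mouse whose symbols begin with Ndufa, Ndufb, Ndufc, Ndufs or Ndufv. They were 49 of the 29517 genes in the count table, 41 of them subunits by name and 8 assembly factors (Ndufaf1 to Ndufaf8). Another 3 genes of such names, Ndufs5-ps, Ndufs6b and Ndufab1-ps, were left out as pseudogenes.

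RNA came from the inguinal white adipose tissue, the subcutaneous fat pad of the groin, of C57BL/6 mice on standard chow without treatment. The 4 WT libraries came from wild-type animals and the 3 KO libraries from animals labelled TM4SF5-/-. TM4SF5 is a membrane protein of the 4-pass L6 family, and these data hold no measure of the protein. The labels give no sex, age, litter or batch and do not say how the allele was made, and the design text speaks of 3 replicates per condition where the labels list 4 WT. KO 1 below means the library labelled KO replicate 1, and so on. Library totals ran from 49775077 to 60241436 counts. Tm4sf5 itself had 20 to 47 counts in WT and 6 to 17 in KO, and the KO 3 level of 0.353 CPM (counts per 1000000 of the scaled library size) lay above the WT 4 level of 0.323 CPM, so this gene did not separate the labelled genotypes library by library. KO 1 and WT 4 lay at opposite ends of the first principal component, which held 35.7% of the variance. The groups overlapped on it, as WT 1 (-8.48) lay nearer to KO 1 than KO 3 (-3.63) did.

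The white adipocyte markers had high levels in every library, with a summed level of the 9 markers (Adipoq, Plin1, Fabp4 and others) from 11838 to 16622 CPM in WT and from 17194 to 30485 CPM in KO. Of these 9, 4 were higher in KO at an unadjusted p under 0.05 and none lower. Of all genes tested, 12.3% were higher and 9.51% lower at that threshold. The 8 brown or beige markers, among them Ucp1 and Cidea, summed to between 200 and 1016 CPM in WT and between 652 and 2520 CPM in KO, with 4 of 8 higher at that threshold. The groups overlapped there, since WT 4 lay above KO 2. The 12 skeletal muscle markers summed to 43.1, 639, 40.7 and 1418 CPM in WT 1 to WT 4 and to 64.0 to 224 CPM in KO, so that 2 WT libraries lay above and 2 below all KO libraries, and Ckm, Myh4 and Pvalb were at 0 counts in WT 1. The 9 macrophage markers summed to 1395 to 2162 CPM in WT and 489 to 755 CPM in KO, and all 9 were lower in KO at an unadjusted p under 0.05. The 6 lymphocyte markers ran from 254 to 1154 CPM in WT and from 254 to 710 CPM in KO, the 4 endothelial markers from 263 to 980 and from 392 to 764 CPM, the 5 stromal progenitor markers from 372 to 4305 and from 586 to 1586 CPM, and the 5 epithelial keratinocyte or mammary markers from 1.10 to 2.43 and from 1.72 to 12.0 CPM, with Krt14 at 0 in 4 libraries. The part that any of these lists plays in the complex I values was not tested. In bulk tissue, more cells of a type and more RNA per cell cannot be told apart.

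All 49 complex I genes had higher mean levels in KO than in WT, but no single one passed the test. The log2 fold changes of KO over WT, from edgeR's quasi-likelihood test, ran from 0.38 for Ndufaf6 to 1.09 for Ndufc1, where the median of the 19185 genes tested was -0.04. All 49 passed the filter on low counts, and the lowest mean count of a member over the 7 libraries was 207. The smallest adjusted p among them was 0.0956, and 0 of 49 passed an adjusted p of 0.05, as did 0.0% of all genes tested. At an unadjusted p under 0.05, 46 of 49 were higher and 0 lower, beside 12.3% of all genes higher and 9.51% lower. DESeq2 put 38 of the 49 past its adjusted threshold, all higher, beside 6.29% of all genes called higher and 4.76% called lower by it. limma-voom put 0 of the 49 past, beside 0.00521% of all genes.

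The assembly factors had a lower median difference between KO and WT than the subunits, with overlap between the sets. Among the 41 subunits the median log2 fold change was 0.84, and 39 were higher at an unadjusted p under 0.05. Among the 8 assembly factors the median was 0.52, and 7 were higher at that threshold. Every KO library lay above every WT library for 34 of 41 subunits and for 5 of 8 assembly factors, a separation found in that direction for 11.4% of all genes and in the opposite one for 8.92%. Ndufaf1 had the largest change among the assembly factors, 0.72, and 34 of the 41 subunits had a larger one. Ndufaf6 and Ndufaf7 had smaller changes than any of the 41 subunits. The difference between the 2 sets was not tested, as genes are not replicates of a condition.

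**Figure D1:**
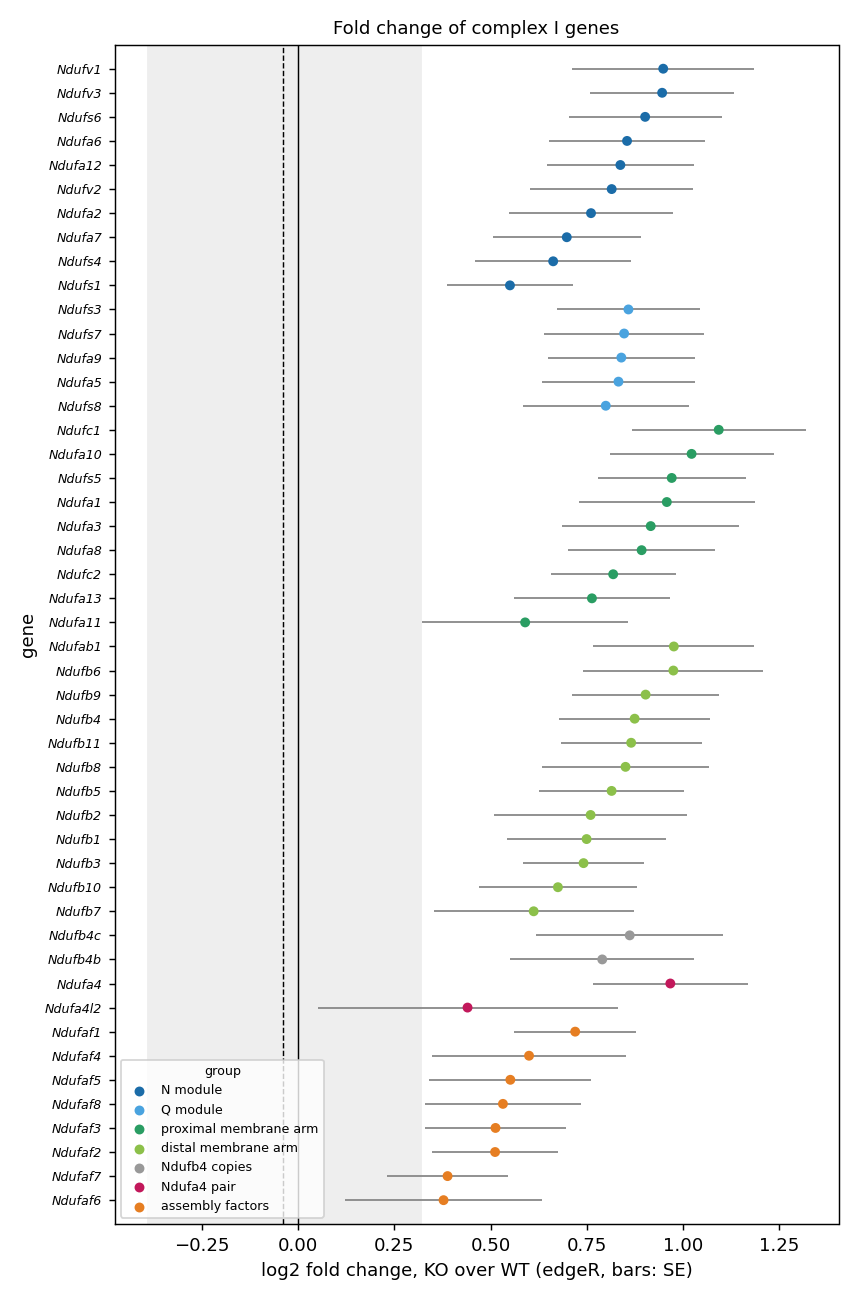
Log2 fold change of KO over WT (x axis) for 48 complex I genes (y axis), ordered by structural group. Points are edgeR estimates and bars standard errors (SE) worked back from the F-test. The dashed line is the median of all 19185 genes tested (-0.04) and the grey band its quartiles, -0.39 and 0.32. All points lie to the right of 0, with the assembly factors (orange) between 0.38 and 0.72.

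How firmly the groups separate depends on the scaling. The scaling factors (trimmed mean of M values, TMM) were 1.06 to 1.16 in WT and 0.798 to 0.954 in KO. With library totals alone the median of all genes moved to -0.35, and the medians were 0.51 for subunits and 0.20 for assembly factors. Relative to the median of all genes this left 0.86 and 0.55, against 0.88 and 0.56 with TMM, and all 49 genes stayed above 0. The number with every KO library above every WT library became 5 for subunits and 0 for assembly factors, beside 3.06% of all genes under that scaling, and for the assembly factors it was 8 without KO 2. The 7 assembly factors higher at an unadjusted p under 0.05 became 1 with library totals alone. They became 2 without KO 1 or without KO 3, 3 without WT 1, and 4 without WT 3 or without WT 4. The 39 subunits became 26 with library totals, where 3.62% of all genes were higher at that threshold, and 35 to 40 with any 1 library left out. The share of all genes was not counted with a library left out, so those counts have no background beside them. The assembly factor median then ran from 0.45 (without WT 1) to 0.66 (without KO 2).

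For the nuclear complex I genes, the 3 KO libraries differed more among themselves than the 4 WT libraries did. As a median over the 41 subunits, the level was 2.16 times the WT mean in KO 1, 1.31 times in KO 2 and 1.89 times in KO 3, and between 0.905 and 1.11 times in the WT libraries. KO 2 was the lowest KO library for 39 of 41 subunits and for 8 of 8 assembly factors, and KO 1 was the highest for 32 subunits and 4 assembly factors. In WT, WT 2 was the highest library for 31 subunits and WT 1 the lowest for 31. The coefficient of variation over libraries had a median of 11.7% in WT and 26.9% in KO for subunits, and was larger in KO for 39 of 41. It was larger in KO for 7 of 8 assembly factors. The summed share of counts of the 7 mtDNA-encoded subunits went the other way, with an SD of 0.627 in WT and 0.360 in KO. The spread was not compared over all genes. For the assembly factors the median ratios to the WT mean were 1.55 in KO 1, 1.16 in KO 2 and 1.58 in KO 3, so the gap between subunits and assembly factors was widest in KO 1 and narrowest in KO 2.

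**Figure D2:**
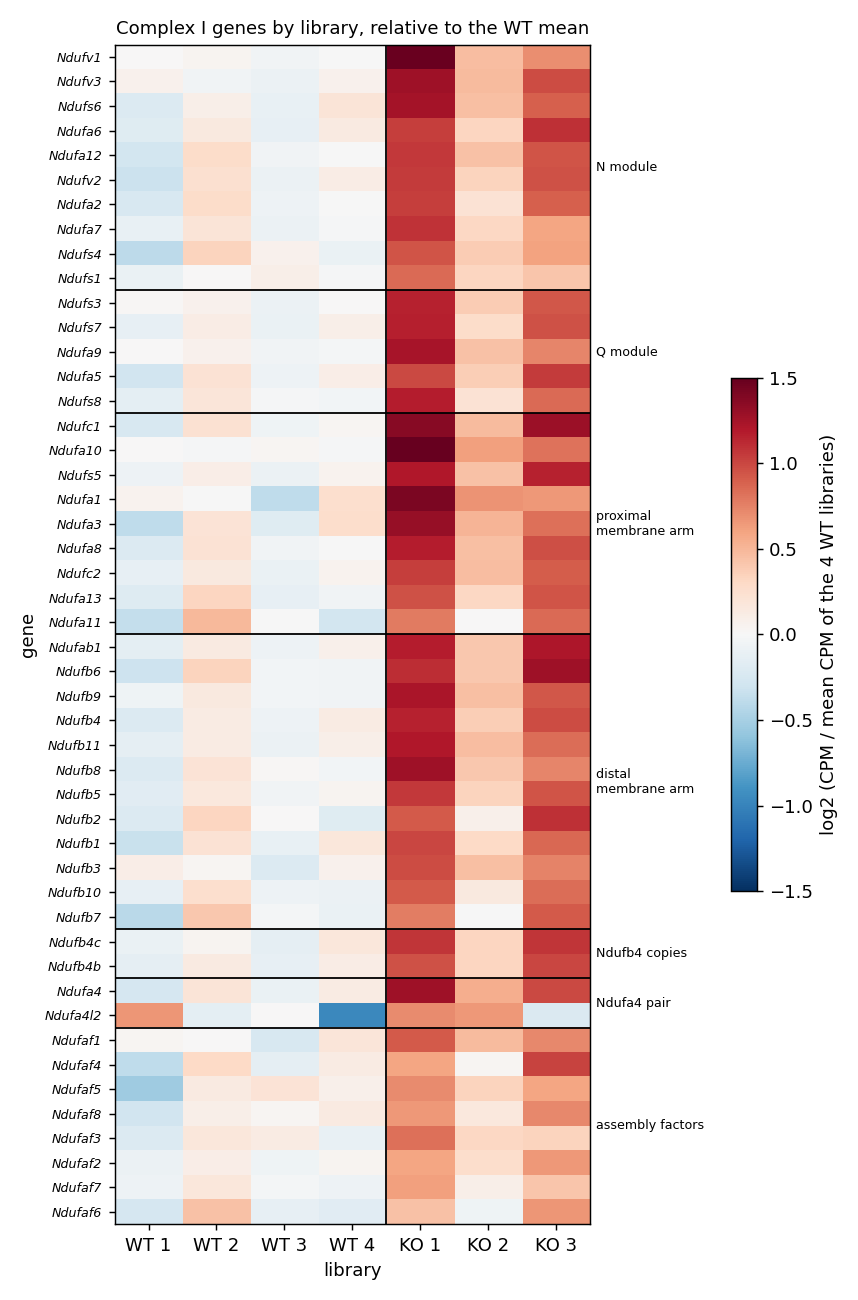
Level of 48 complex I genes (rows, by structural group) in each library (columns), as log2 of the CPM over the mean CPM of the 4 WT libraries, from blue (lower) to red (higher). KO 1 and KO 3 are red for nearly every gene and KO 2 is paler; the median subunit ratios were 2.16, 1.89 and 1.31.

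Promoter sequences were looked at because all 49 genes differed in the same direction. RefSeq start sites on GRCm38.p6, with 250 bases before and 50 after the start, were at hand for 42 of the 49 genes, 35 subunits and 7 assembly factors. Words of 4 factors known for mitochondrial genes were searched on both strands. AAGATGGCG, a word bound by YY1, occurred in 6 of 42 genes (14.3%), against 2.61% of 14137 protein-coding genes and 1.40% of all 32851 windows. In all 6 the word lay on the gene's own strand within the first 50 bases after the start, as it did in 45.3% of the 461 windows of any gene that hold it. The word holds the letters ATG, and whether these are the start codon of the protein was not looked at. The 30 bases around each match are shown 5′ to 3′ on the gene's strand, with the word in capitals. They lie at chr3:51408914-51408943 (minus strand) for Ndufc1, chr6:126849096-126849125 (minus) for Ndufa9, chr10:80249463-80249492 (plus) for Ndufs7, chr11:120098934-120098963 (plus) for Ndufaf8, chr13:73328433-73328462 (minus) for Ndufs6 and chr13:114388045-114388074 (minus) for Ndufs4.
Ndufc1: cctgcggaacAAGATGGCGccgtccgtagt
Ndufa9: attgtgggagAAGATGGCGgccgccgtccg
Ndufs7: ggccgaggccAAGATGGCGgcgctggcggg
Ndufaf8: ggcagggcccAAGATGGCGgcgccctcgag
Ndufs6: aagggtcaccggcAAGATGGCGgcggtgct
Ndufs4: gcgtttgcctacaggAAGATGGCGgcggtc

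GCGCANGCG, with N for any base, the core of the site of NRF1, a regulator of nuclear genes for respiration, occurred in 10 of 42 genes (23.8%), against 11.7% of protein-coding genes and 6.25% of all windows. The 250 bases before the start are shown for the subunit Ndufb4 (chr16:37654369-37654618, minus strand), which had 3 matches there, at positions -191, -79 and -22 from the start, and for the assembly factor Ndufaf4 (chr4:24897833-24898082, plus strand), whose 2 matches, at -113 and -112, overlap on opposite strands. Capitals mark the matches.
Ndufb4: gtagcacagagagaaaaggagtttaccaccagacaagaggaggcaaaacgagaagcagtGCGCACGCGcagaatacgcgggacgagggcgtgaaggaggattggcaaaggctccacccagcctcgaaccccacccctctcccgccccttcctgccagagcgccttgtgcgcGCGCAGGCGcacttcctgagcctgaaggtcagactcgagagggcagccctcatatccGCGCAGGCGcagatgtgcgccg
Ndufaf4: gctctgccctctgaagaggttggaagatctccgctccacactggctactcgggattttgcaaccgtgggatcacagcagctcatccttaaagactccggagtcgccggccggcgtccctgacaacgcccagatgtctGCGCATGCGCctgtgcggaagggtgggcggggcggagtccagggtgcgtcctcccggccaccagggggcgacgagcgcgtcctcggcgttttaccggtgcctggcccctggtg

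CCGGAAG, a word of ETS factors such as GABP, occurred in 6 of 42 genes (14.3%), against 15.6% of protein-coding genes and 8.86% of all windows. TCAAGGTCA, the word of the estrogen-related receptors, occurred in 0 of 42, against 0.368% of protein-coding genes and 0.423% of all windows. Matches of different words did not overlap each other. The median log2 fold change was 0.84 for genes with the NRF1 word and 0.82 for those without, and 0.84 and 0.82 likewise for the YY1 word. For the ETS word it was 0.76 with and 0.83 without. A match is a description of the letters only.

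The N module holds the NADH-oxidising end of the matrix arm, and its 10 genes were all higher at an unadjusted p under 0.05, with a median log2 fold change of 0.83. Ndufv3, an accessory subunit (chr17:31520115-31531326), had 87.6, 80.6, 78.7 and 87.1 CPM in WT 1 to WT 4 and 202, 116 and 164 CPM in KO 1 to KO 3. The groups did not overlap, and the log2 fold change was 0.95 (SE 0.19, adjusted p = 0.0956). Ndufs6, an accessory subunit with a zinc site, had 33.2, 40.5, 35.5 and 43.7 CPM in WT and 90.7, 52.3 and 71.4 CPM in KO, a log2 fold change of 0.90 (SE 0.20). Ndufa12 had 55.8, 81.4, 65.0 and 67.2 CPM in WT and 141, 91.3 and 129 CPM in KO, a log2 fold change of 0.84 (SE 0.19). For both genes KO 2 lay nearest to the WT libraries, but still above them.

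In the same module Ndufv1, which binds NADH and the flavin, had 177, 182, 170 and 176 CPM in WT and 492, 244 and 286 CPM in KO. KO 1 stood well above KO 2 and KO 3, and the log2 fold change was 0.95 (SE 0.24). Ndufs1, the largest subunit and a carrier of iron-sulfur clusters, had 208, 223, 237 and 220 CPM in WT and 401, 277 and 296 CPM in KO. Its log2 fold change of 0.55 (SE 0.16) was the smallest of the module. Ndufv2, Ndufa6, Ndufa7, Ndufa2 and Ndufs4, the last an accessory subunit known from mouse models of mitochondrial disease, had log2 fold changes between 0.66 and 0.85. Of these 5, the groups overlapped only for Ndufa2, where KO 2 had 55.0 CPM and WT 2 had 56.9 CPM.

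The Q module reduces ubiquinone, and its 6 genes had the narrowest range of change, from 0.80 for Ndufs8 to 0.86 for Ndufs3. For all 6 genes every KO library lay above every WT library. Ndufs3 (chr2:90894627-90904721) had 105, 108, 97.2 and 104 CPM in WT and 230, 134 and 197 CPM in KO, a log2 fold change of 0.86 (SE 0.19, adjusted p = 0.0957). Ndufa9, an accessory subunit with a nucleotide-binding fold, had 123, 128, 118 and 120 CPM in WT and 288, 166 and 204 CPM in KO, a log2 fold change of 0.84 (SE 0.19). Ndufa5 had 35.7, 50.9, 41.5 and 46.8 CPM in WT and 87.0, 56.4 and 90.2 CPM in KO, with a log2 fold change of 0.83 (SE 0.20). In these 3 genes KO 2 was the KO library nearest to WT, and Ndufa5 alone had KO 3 above KO 1. Over the 7 core subunits encoded in the nucleus, the median log2 fold change was 0.82, and over the 30 accessory subunits it was 0.85.

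The proximal membrane arm, next to the matrix arm, had the highest median change of the 4 modules, 0.92 over 9 genes, and 8 of the 9 were higher at an unadjusted p under 0.05. Ndufc1 (chr3:51405479-51408955) had 26.7, 37.2, 30.2 and 32.4 CPM in WT and 81.3, 44.0 and 77.0 CPM in KO. Its log2 fold change of 1.09 (SE 0.23, adjusted p = 0.0956), 2.13-fold, was the largest of the 49. Its partner Ndufc2 had 55.7, 67.3, 56.7 and 62.8 CPM in WT and 124, 83.3 and 114 CPM in KO, a log2 fold change of 0.82 (SE 0.16). Ndufs5, a subunit on the intermembrane space side, had 49.8, 56.2, 49.3 and 54.4 CPM in WT and 121, 70.8 and 117 CPM in KO, a log2 fold change of 0.97 (SE 0.19).

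Ndufa10 was the steadiest of all in WT, at 183, 180, 186 and 180 CPM, a coefficient of variation of 1.60%. In KO it had 513, 279 and 320 CPM, a 2.03-fold difference (log2 1.02, SE 0.21). The X-linked Ndufa1 (chrX:37187588-37191238) had 46.7, 44.9, 34.6 and 53.6 CPM in WT and 120, 71.8 and 70.6 CPM in KO, one of only 2 genes with KO 3 below KO 2 (the other was Ndufa4l2). Ndufa8 and Ndufa3 had log2 fold changes of 0.89 and 0.92 without overlap, while for Ndufa13, also known as GRIM-19, KO 2 at 90.7 CPM lay just under WT 2 at 91.4 CPM. Ndufa11 had 39.8, 71.1, 50.7 and 42.2 CPM in WT and 87.5, 51.0 and 91.7 CPM in KO. WT 2 was above KO 2 there, and the log2 fold change of 0.59 (SE 0.27, adjusted p = 0.245) had the least support in the module.

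The distal membrane arm, which holds the far proton pumps, had a median log2 fold change of 0.83 over 12 genes, all higher at an unadjusted p under 0.05. Ndufb9 (chr15:58933801-58939516) had 137, 158, 138 and 137 CPM in WT and 333, 194 and 272 CPM in KO, a log2 fold change of 0.90 (SE 0.19, adjusted p = 0.0956). The X-linked Ndufb11 (chrX:20615326-20617619) had 72.4, 87.2, 75.1 and 84.5 CPM in WT and 183, 110 and 143 CPM in KO, with 0.87 (SE 0.18). Ndufb3 had 76.6, 72.7, 61.9 and 74.9 CPM in WT and 141, 97.5 and 120 CPM in KO, with 0.74 (SE 0.16). In these 3 genes KO 1 was highest, KO 3 next and KO 2 lowest, all above WT.

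Ndufab1, the mitochondrial acyl carrier protein, sits in complex I and also serves mitochondrial fatty acid synthesis. It had 106, 128, 111 and 123 CPM in WT and 265, 154 and 271 CPM in KO, a log2 fold change of 0.98 (SE 0.21). KO 1 and KO 3 were nearly level, and KO 2 was the lowest KO library. The groups overlapped for 3 of the 12 genes, Ndufb10, Ndufb2 and Ndufb7, each through WT 2 and KO 2. Ndufb7 had 47.4, 83.2, 61.7 and 58.6 CPM in WT and 107, 62.5 and 119 CPM in KO, and its log2 fold change of 0.61 (SE 0.26) was the smallest of the arm. The other 5 genes, Ndufb4, Ndufb5, Ndufb6, Ndufb8 and Ndufb1, lay between 0.75 and 0.98 with no overlap.

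Subunits that stood high in WT 2 relative to WT 1 tended to have KO 3 close to or above KO 1. Across the 41 subunits the ratio of WT 2 to WT 1 ran from 0.57 for Ndufa4l2 to 1.79 for Ndufa11, and the ratio of KO 1 to KO 3 from 0.89 for Ndufb2 to 1.90 for Ndufa4l2. The 2 ratios had a Spearman correlation of -0.55 and, on log2 values, a Pearson correlation of -0.65 over these 41 genes, all measured in the same 4 libraries. Ndufa4l2, at the extreme of both ratios, is among them. The correlation was not computed over all genes, so it is not shown to be particular to the subunits. Against transcript length the ratio of WT 2 to WT 1 had a Spearman correlation of -0.21 over 38 subunits and of -0.30 over 14413 protein-coding genes. For the ratio of KO 1 to KO 3 these were 0.20 and -0.095.

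Ndufb4b and Ndufb4c are listed as protein-coding but are near-copies of Ndufb4, and their counts may include reads of Ndufb4. Ndufb4b, the gene with the lowest CPM, had 2.72, 3.28, 2.74 and 3.22 CPM in WT and 5.82, 3.74 and 5.96 CPM in KO. Its counts were 5.73% to 6.86% of those of Ndufb4 in every library, and those of Ndufb4c 7.14% to 8.13%. Their log2 fold changes were 0.79 and 0.86, beside 0.87 for Ndufb4. Left out of the rule, the pseudogene Ndufs5-ps had 6.21% to 8.39% of the counts of Ndufs5.

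Ndufa4 and its paralog Ndufa4l2 bear the family name, but the protein of Ndufa4 is now placed in complex IV, cytochrome c oxidase, and Ndufa4l2 is known as a target of hypoxia signalling. Ndufa4 had 141, 192, 157 and 182 CPM in WT and 405, 245 and 335 CPM in KO. The groups did not overlap, the log2 fold change was 0.97 (SE 0.20, adjusted p = 0.0956), and an exact permutation test of its mean log2 CPM, two-sided over 35 splits, gave 0.0286, the smallest p that 4 against 3 libraries allow. With library totals alone that exact permutation p was 0.0857. Ndufa4l2 had 9.11, 5.21, 5.78 and 2.93 CPM in WT and 9.42, 9.07 and 4.97 CPM in KO. Its groups overlapped widely, with WT 1 beside KO 1 and KO 2 and with KO 3 below 3 WT libraries. Its log2 fold change of 0.44 (SE 0.39, adjusted p = 0.534) had the largest SE of the 49 genes, and the exact permutation p was 0.343. Of the 41 subunits by name, Ndufa4l2 and Ndufa11 were those not past an unadjusted p of 0.05.

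The assembly factors act at successive stages. Ndufaf1, which with Ecsit, Acad9 and Tmem126b forms the complex that assembles part of the membrane arm, had 20.9, 20.6, 17.3 and 23.3 CPM in WT and 39.0, 28.6 and 34.0 CPM in KO. The groups did not overlap, and the 1.65-fold difference (log2 0.72, SE 0.16) had an adjusted p of 0.0967. Ndufaf3 and Ndufaf4 bind the early Q module together. Ndufaf3 had 11.5, 15.0, 14.5 and 12.3 CPM in WT and 23.7, 16.6 and 16.8 CPM in KO, a log2 fold change of 0.51 (SE 0.18). Ndufaf4 had 24.0, 38.7, 28.6 and 34.3 CPM in WT and 47.5, 31.9 and 63.4 CPM in KO, a log2 fold change of 0.60 (SE 0.25), and KO 2 lay among the WT libraries.

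Ndufaf5 and Ndufaf7 are enzymes, Ndufaf5 a hydroxylase of Ndufs7 and Ndufaf7 an arginine methyltransferase. Ndufaf5 had 6.77, 10.7, 11.3 and 10.3 CPM in WT and 16.0, 12.3 and 14.8 CPM in KO, a log2 fold change of 0.55 (SE 0.21). Ndufaf8, the partner of Ndufaf5, had 5.45, 7.06, 6.78 and 7.27 CPM in WT and 10.4, 7.42 and 11.0 CPM in KO, with 0.53 (SE 0.20). For Ndufaf8 KO 2 was only just above WT 4. Ndufaf7 had 19.8, 23.6, 20.5 and 19.8 CPM in WT and 32.0, 22.3 and 27.8 CPM in KO, with 0.39 (SE 0.16), and KO 2 lay below WT 2.

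Ndufaf2, a paralog of the subunit Ndufa12 that holds its place until late in assembly, had 7.44, 8.49, 7.59 and 8.11 CPM in WT and 11.9, 9.51 and 12.4 CPM in KO. On the log2 scale the difference was 0.51 (SE 0.16), against 0.84 for Ndufa12. Ndufaf6, needed for the mtDNA-encoded subunit ND1, had 4.95, 7.95, 5.39 and 5.24 CPM in WT and 8.01, 5.61 and 9.31 CPM in KO. WT 2 and KO 1 were almost equal there, and the log2 fold change of 0.38 (SE 0.26, adjusted p = 0.419) was the lowest of the 49 and the one assembly factor not past an unadjusted p of 0.05. DESeq2 put 2 of the 8 assembly factors and 36 of the 41 subunits past its adjusted threshold, beside 6.29% of all genes called higher.

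Per kilobase of transcript, the median level of the assembly factors was below that of the subunits in both genotypes. The median mean level was 92.4 CPM per kilobase in WT and 162 in KO over the 38 subunits with an annotated transcript length, and 9.17 in WT and 12.9 in KO over the 8 assembly factors. Ndufa4 was highest at 365 in WT and 714 in KO, followed by Ndufb9 at 202 and 379. The lowest were Ndufaf6 at 5.44 and 7.06 and Ndufa4l2 at 6.17 and 8.37. All other subunits but Ndufb2 lay at 40.4 or above in WT. Ndufb2, at 12.7 and 21.5, was the one true subunit within the range of the assembly factors, but its length of 2413 bases is the median of transcripts of very different length.

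**Figure D3:**
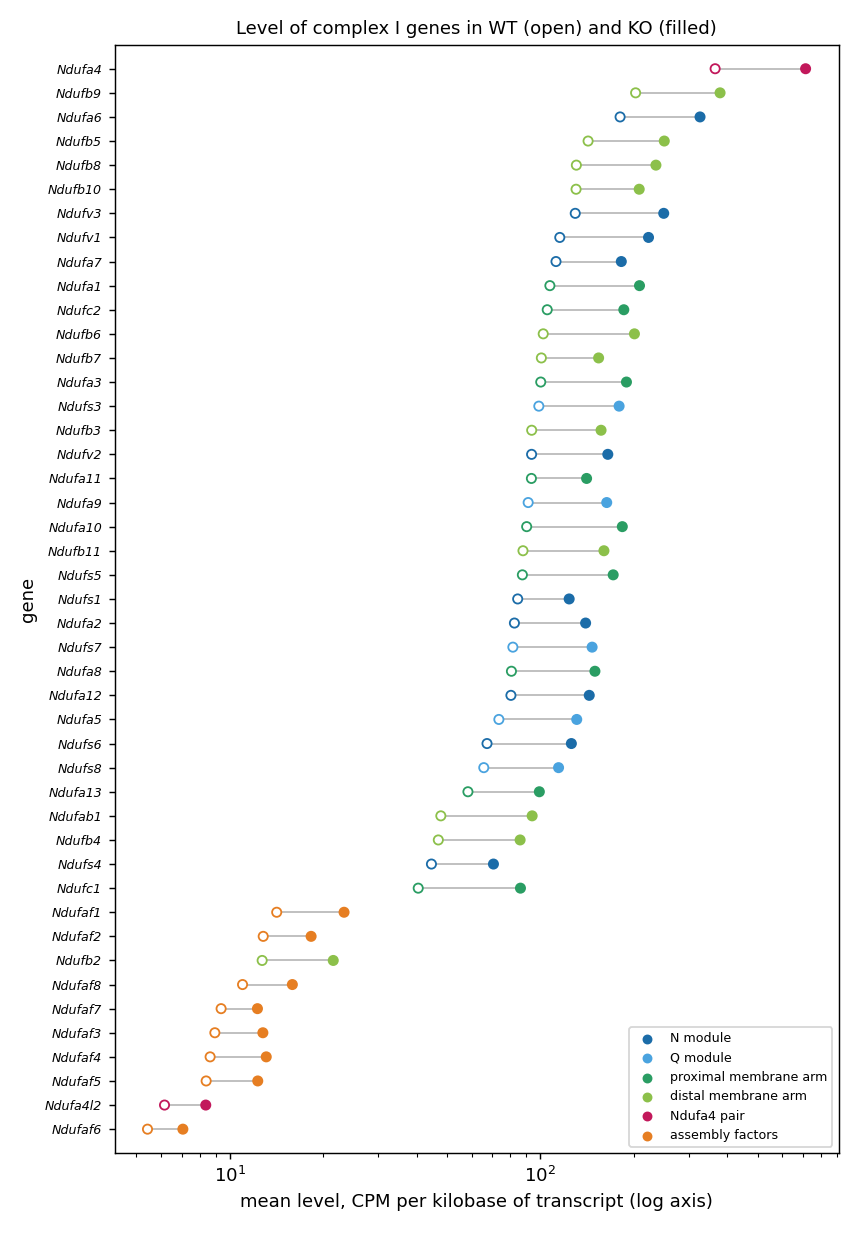
Mean level in CPM per kilobase of transcript (x axis, log scale) of 45 complex I genes with a transcript length (y axis, ordered by WT level), in WT (open) and KO (filled). The assembly factors (orange) lie between 5.44 and 14.2 in WT, below all subunits but Ndufb2 and Ndufa4l2.

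Other assembly factors, from a list of 11 of which 10 were found in the table by symbol, were all higher at an unadjusted p under 0.05, with a median log2 fold change of 0.62. By edgeR 0 of the 10 passed the adjusted threshold, and by DESeq2 6. Of all genes, 12.3% were higher at that unadjusted p and 6.29% were called higher by DESeq2. Aifm1, a flavoprotein of the intermembrane space, had 49.6, 48.2, 47.2 and 52.0 CPM in WT and 92.5, 68.6 and 86.7 CPM in KO, a log2 fold change of 0.75 (SE 0.14, adjusted p = 0.0956). Tmem70, which serves the assembly of complexes I and V, had 0.83 (SE 0.16), and Ecsit 0.70 (SE 0.18). For 9 of the 10 every KO library lay above every WT library, beside 11.4% of all genes. The count of 10 became 6 without KO 1, where the share of all genes was not counted. It became 2 with library totals alone, where 3.62% of all genes were higher.

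The mtDNA-encoded subunits of the same complex, whose messages are made inside the mitochondrion, also had higher levels in KO. All 7 were higher at an unadjusted p under 0.05 with no overlap, and the median log2 fold change was 1.15. By edgeR 0 of the 7 passed the adjusted threshold, and by DESeq2 all 7. Of all genes, 12.3% were higher at that unadjusted p, 11.4% had no overlap in that direction and 6.29% were called higher by DESeq2. ND1 had 6123, 6427, 6220 and 9114 CPM in WT and 20199, 13156 and 21606 CPM in KO, a log2 fold change of 1.39 (SE 0.32, adjusted p = 0.0967). ND6, the one encoded on the other strand, had 254, 188, 194 and 304 CPM in WT and 582, 534 and 368 CPM in KO, with 1.07 (SE 0.24). ND3 had 366, 365, 321 and 609 CPM in WT and 1395, 745 and 977 CPM in KO, with 1.32 (SE 0.30), and ND4L had 1.12 (SE 0.25). ND5 had the smallest difference, 0.90 (SE 0.29), which was below that of several nuclear subunits. The summed share of the 7 in all counts was 2.97% ± 0.627 for the WT libraries (SD, n = 4). For the KO libraries it was 5.52% ± 0.360 (SD, n = 3), and the two-sided exact permutation test gave 0.0286, the smallest p possible. Nuclear copies of mtDNA can share these reads. The ND6 gene (13552-14070) overlaps the end of ND5 (11742-13565) on the other strand. No source used here names the strand setting, so the ND6 counts may include reads from the opposite strand.

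The KO libraries were not ordered alike for the 2 genomes. The median ratio to the WT mean of the 7 mtDNA-encoded subunits was 2.60 in KO 1, 2.21 in KO 2 and 1.88 in KO 3, where the nuclear subunits had 2.16, 1.31 and 1.89. In WT it was lowest in WT 2 (0.751) and highest in WT 4 (1.29), while the nuclear subunits were highest in WT 2 (1.11). When the mitochondrially encoded genes were taken out before scaling, the nuclear medians were 0.84 for subunits and 0.52 for assembly factors, as with them.

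**Figure D4:**
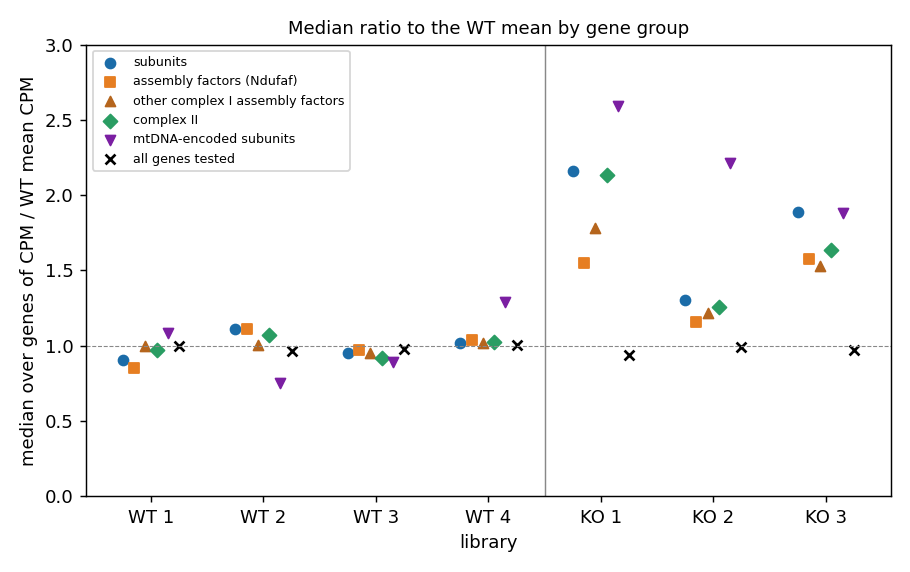
Median over genes of CPM divided by the WT mean CPM (y axis) in each library (x axis), for the gene groups in the key. The nuclear groups are lowest in KO 2 among the KO libraries (1.16 to 1.31), while the mtDNA-encoded subunits reach 2.21 there, and the median of all genes stays between 0.940 and 1.01.

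Complex II, succinate dehydrogenase, which feeds ubiquinone from the citric acid cycle, was set beside complex I. Its 8 genes here were the subunits Sdha, Sdhb, Sdhc and Sdhd and the assembly factors Sdhaf1 to Sdhaf4. Of these 8, 7 were higher at an unadjusted p under 0.05, and 0 passed the adjusted threshold by edgeR and 6 by DESeq2. Of all genes, 12.3% were higher at that unadjusted p and 6.29% were called higher by DESeq2. The median log2 fold change over both kinds was 0.76. It ran from 0.75 (Sdhc) to 0.93 (Sdhd) over the subunits and from 0.25 (Sdhaf2) to 0.80 (Sdhaf4) over the assembly factors. Sdhd, a membrane anchor, had 168, 172, 151 and 175 CPM in WT and 376, 214 and 362 CPM in KO, a log2 fold change of 0.93 (SE 0.21, adjusted p = 0.0967). Sdhaf4 had 0.80 (SE 0.19) and Sdhaf1 0.65 (SE 0.16). Sdhaf2, which inserts the flavin into Sdha, had 0.25 (SE 0.13, adjusted p = 0.300), and with library totals alone its value was -0.07. The count of 7 became 2 with library totals alone, where 3.62% of all genes were higher.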

How the data were processed

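Each of the 7 libraries was a stranded poly(A) library (TruSeq Stranded mRNA) of Trizol-extracted RNA, per the labels' protocols. The authors deposited raw read counts per Entrez gene. Per the submitters' processing notes, bcl2fastq 2.20.0, Trimmomatic, HISAT2 2.1.0, StringTie 1.3.4d and DESeq2 were used with genome build mm10. No source used here names the annotation, the counting rule or the strand setting. Exons of 16 of 47 members looked up overlap another gene's exons, so those counts may include its reads.

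Symbols came from a RefSeq table of GRCm38.p6, the assembly of mm10, for 29444 of 29517 identifiers. RefSeq lists Ndufb1 as protein-coding, while GENCODE M21 lists it as a non-coding transcript. Transcript length was the median over GENCODE M21 basic coding transcripts, for 46 of 49 members. Low genes were removed with the filterByExpr function (minimum count 10) of edgeR 4.0.16 in R 4.3.3, and counts were scaled by TMM and compared by the quasi-likelihood F-test, two-sided, with Benjamini-Hochberg adjustment over all 19185 genes, and no p was adjusted over the members. Each SE is the absolute log2 fold change divided by the square root of the F statistic, as this test gives no SE itself. CPM use the library size after TMM scaling. DESeq2 1.42.0 and limma-voom (limma 3.58.1) were alternatives.

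The members and lists were chosen with earlier results of these data known. Module lists follow textbook structure. Values in every library are given for all assembly factors, the 3 members of each module with the smallest p, Ndufa4, Ndufa4l2, Ndufab1, and the extremes of change and level; for other lists the 3 of smallest p are named. Ndufv1, Ndufs1, Ndufa10, Ndufa1, Ndufa11, Ndufb7, ND1, ND5, Sdhaf2 and the ranges within complex II were added after their values were seen. The values of 1 member are not reported here, while counts and medians over groups include it. The design text calls the replicates biological, but no label ties a library to an animal, so the tests weigh the spread among libraries, which may be technical. No 2 libraries agreed within sampling noise (chi-square per degree of freedom 105 to 544).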

Additional observations from a re-analysis of the deposited data

Results flagged for a closer look

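Among 65 sets of 4 WT values looked at (the members, the other named genes and the share of counts of the mtDNA-encoded subunits), 5 held 1 library that stood apart from the other 3, by the gap to its nearest neighbour as a share of the range (Dixon's ratio, against its 95% critical value). Chance flags about 1 in 20 such sets, and the genes share libraries. WT 2 stood apart above the others for Ndufb9 (ratio 0.9265), Ndufb10 (0.872) and Ndufaf6 (0.8528). WT 4 stood apart above the others for ND1 (0.8984) and ND3 (0.8427). For Ndufb9, ND1 and ND3 the 3 KO libraries still lay above that WT library, and for Ndufb10 and Ndufaf6 KO 2 lay below it.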

How the results depend on the processing

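All 49 members kept a log2 fold change above 0 under each of the 15 other settings: DESeq2-type size factors, library totals alone, mitochondrially encoded genes left out, other filters on low counts, DESeq2, limma-voom, the replicate block and each library left out. With library totals alone (median over all genes -0.35 in place of -0.04), the medians were 0.20 for assembly factors, 0.29 for other assembly factors and 0.82 for mtDNA-encoded subunits. The genes higher at an unadjusted p under 0.05 then numbered 1 assembly factor, 2 other assembly factors and 2 genes of complex II, and those with no overlap between groups 5 subunits and 0 assembly factors. Under that scaling 3.62% of all genes were higher at that threshold and 3.06% had no overlap in that direction. Sdhaf2 reversed to -0.074, and the exact permutation p of Ndufa4 was 0.0857. DESeq2 called 38 members and moved 33 of the single genes named here past its threshold. With one library left out, assembly factors at an unadjusted p under 0.05 numbered 2 to 7, other assembly factors 6 to 10, assembly factors without overlap 5 to 8, and the exact permutation p of Ndufa4 was 0.0667 to 0.1, which are the smallest such designs allow. The replicate numbers were also used as a block (WT 1 to WT 3 against KO 1 to KO 3). Then 34 subunits and 1 assembly factor were higher at an unadjusted p under 0.05, with medians of 0.83 and 0.54. No share of all genes was counted with the block or with a library left out. The replicate numbers gave no sign of pairing, as deviations of same-numbered libraries correlated at 0.19, -0.22 and 0.13. For libraries of different numbers the correlations ran from -0.33 to 0.26. With so few libraries this cannot show that the samples were unpaired. The count of genes without overlap under other scalings was chosen after seeing the data. The causes of these shifts were not tested.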
